A study of Homo sapiens with 15 samples.

Results

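GATA2 and cohesin binding were set side by side within 1 cell line, TF-1, a human erythroleukemia line, made to express mutant RAD21. The sites are the peaks of the pooled GATA2 list and the pooled SMC3 list of the Q592* line on the 22 autosomes, chosen by file and chromosome and not by any measured value. They number 57483 GATA2 and 31878 SMC3 peaks, 89361 of the 198298 peaks that the 6 peak lists of the series hold on all chromosomes. The Q592* cells carry an inducible vector for RAD21 Q592*, a RAD21 form cut short by a stop codon, and had 6 days of doxycycline. The WT cells, used here as the comparison, express wild-type RAD21 from an inducible vector and had the same induction. The labels give 2 GATA2 and 2 SMC3 libraries for each line, 1 RUNX1 library for Q592* and 2 for WT, and 2 inputs for each line. The labels do not say whether a line is 1 clone, and the cells' own RAD21 is not described in them. Peaks were called per pool, so each target and line has 1 list, there is no replicate spread, and no test between lists or between kinds of site was possible. Intervals given below are 95% Wilson intervals for shares and binomial intervals for medians, and cover counting error only.

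SMC3 is a core subunit of cohesin, the ring complex whose kleisin subunit is RAD21. Cohesin extrudes chromatin loops and is held up at sites bound by CTCF, and it is also found at active enhancers and promoters together with tissue-specific transcription factors. GATA2 is a zinc-finger factor of blood stem and progenitor cells that binds GATA motifs, largely at enhancers, and RUNX1 is a partner factor at many of the same enhancers. Gene names and sequences were not used here, since both need a genome of the build of the peak lists, hg19, and sites are given by position.

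A minority of the sites of either protein was shared with the other. A GATA2 peak and an SMC3 peak that overlapped by at least 1 bp were called joint. Of the GATA2 peaks 6756 of 57483 were joint (11.8%, 11.5 to 12.0%), and of the SMC3 peaks 6829 of 31878 (21.4%, 21.0 to 21.9%). These shares are the rule itself and describe the lists. Joined into regions, the lists gave 6702 joint, 50727 GATA2-only and 25049 SMC3-only regions. Of the joint regions 6530 held 1 GATA2 and 1 SMC3 peak (97.4%), 119 held 1 GATA2 peak and several SMC3 peaks, 47 several GATA2 peaks and 1 SMC3 peak, and 6 several of both. Peaks that barely touched were few, but a stricter rule moved the shares. The overlap of a joint pair had a median of 237 bp and was 50 bp or less in 102 of 6883 overlapping pairs, and 158 GATA2-only peaks lay within 100 bp of an SMC3 peak without touching it. With an overlap of at least 50% of both peaks, 5.95% of the GATA2 and 10.7% of the SMC3 peaks were joint, and with a −log10 q of at least 10 in both lists 6.44% and 10.1%. In WT the lists, of 38063 GATA2 and 41215 SMC3 peaks on autosomes, gave 9992 joint regions. There 26.4% of the GATA2 peaks and 25.05% of the SMC3 peaks were joint. These shares depend on the lengths of both lists, which differ between the lines, so they are not a contrast of shared binding.

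The joint sites were strong GATA2 sites and weak SMC3 sites. By the authors' fold enrichment, the ratio of ChIP signal at the summit to the local background, the GATA2 peaks of joint regions had a median of 8.57 (8.32 to 8.80), compared with 4.77 (4.74 to 4.79) in GATA2-only regions. The interval between the 25th and 75th percentile was 4.64 to 15.9 at joint and 3.71 to 6.90 at GATA2-only regions, so the 2 sets overlapped widely. SMC3 ran the other way, with a median fold of 4.03 (3.96 to 4.06) at joint regions and 6.41 (6.34 to 6.47) at SMC3-only regions. The corresponding percentiles were 3.16 and 6.43 at joint regions and 4.50 and 9.20 at SMC3-only regions. The −log10 q showed the same order, at 53.6 and 13.9 for GATA2 and at 9.66 and 30.3 for SMC3. The order was not particular to Q592*. In WT the median GATA2 fold was 6.29 at joint and 4.17 at GATA2-only regions, and the SMC3 fold 4.02 at joint and 5.90 at SMC3-only regions. In Q592* GATA2 peaks were also wider at joint regions, with a median of 432 bp against 269 bp, whereas SMC3 peaks had 318 bp and 336 bp. Wider peaks meet the overlap rule more readily, and the part of this in the GATA2 widths was not tested.

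Sharing ran in opposite directions through the lists. Each list was cut into deciles by fold enrichment. In GATA2 deciles 2 to 6 between 5.48% and 7.04% of the peaks were joint, and in the highest decile, with folds of at least 12.6, 40.2% (38.9 to 41.4%). Of the 100 GATA2 peaks of highest fold, 87 were joint. In the SMC3 list the lowest decile, with folds of at most 3.08, held the most joint peaks, 49.6% (47.8 to 51.3%), and decile 7 the fewest, 8.91% (7.97 to 9.95%). The share was higher again in the highest SMC3 decile, at 17.04% (15.8 to 18.4%), and 36 of the 100 SMC3 peaks of highest fold were joint. The lowest GATA2 decile also stood above the one after it, at 8.84% against 6.43%. The local background, estimated from the fold and the p-value and divided by the genome-wide value of the list, was highest in the lowest deciles, with a median of 2.65 in the lowest GATA2 decile and 3.56 in the lowest SMC3 decile. Among peaks with a local background of at most 2 times, the joint shares were 5.51% in the lowest and 35.4% in the highest GATA2 decile, and 62.3% and 18.0% in the lowest and highest SMC3 decile. In WT, over all peaks, 70.3% of the highest GATA2 decile were joint. The WT SMC3 share was 39.7% in the lowest decile, 41.1% in decile 3 and 12.05% in the highest.

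**Figure D1:**
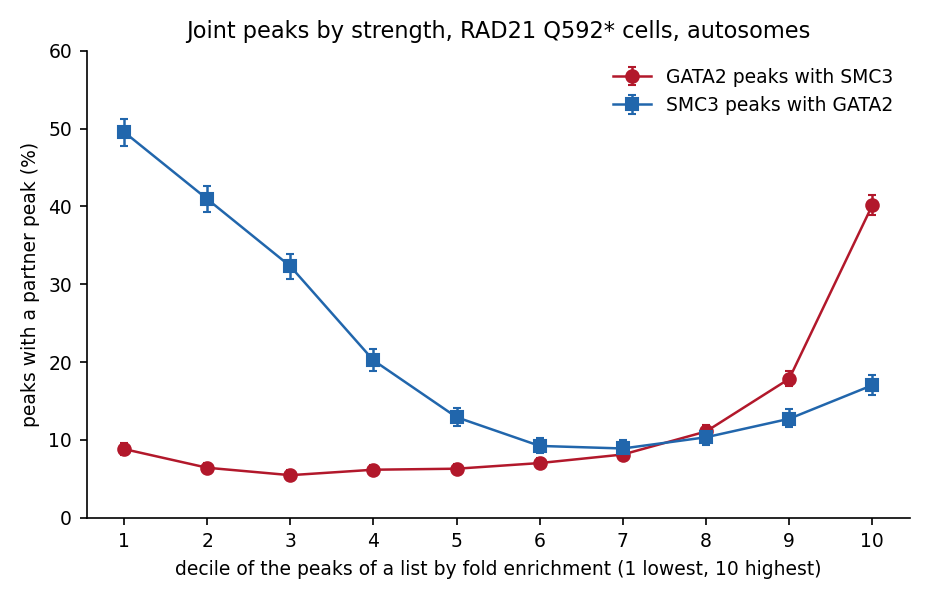
Share of peaks with a partner peak (y axis, %) by decile of fold enrichment within the list (x axis, 1 lowest to 10 highest) for the GATA2 peaks (circles) and SMC3 peaks (squares) of the Q592* line on autosomes, with 95% Wilson intervals as bars. GATA2 sharing reached 40.2% in its highest decile and SMC3 sharing 49.6% in its lowest decile.

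At joint regions the GATA2 and SMC3 summits lay close together, which the overlap rule partly sets. Joint peaks must overlap, and their median widths were 432 bp for GATA2 and 318 bp for SMC3. Distant summits are thus left out beforehand, and with an overlap of at least 50% of both peaks the median distance was 50 bp. The distance between the GATA2 and the SMC3 summit, taken from the strongest peak of each list in a region, had a median of 61 bp (58 to 62). It was at most 10 bp in 10.8% of the joint regions, at most 50 bp in 44.1%, at most 100 bp in 69.3% and at most 200 bp in 87.4%, and reached 1027 bp at most. The chromatin was sheared to about 200 to 400 bp per the labels, so most of these distances are shorter than a fragment. The distance hardly followed strength. Its Spearman rho across the 6702 joint regions was -0.03 with the GATA2 fold and 0.01 with the SMC3 fold. In WT the median distance was 58 bp and 45.4% of the joint regions had summits within 50 bp. At 4447 regions that were joint in both lines and matched 1 to 1, the medians were 59 bp (57 to 62) in Q592* and 60 bp (58 to 63) in WT.

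**Figure D2:**
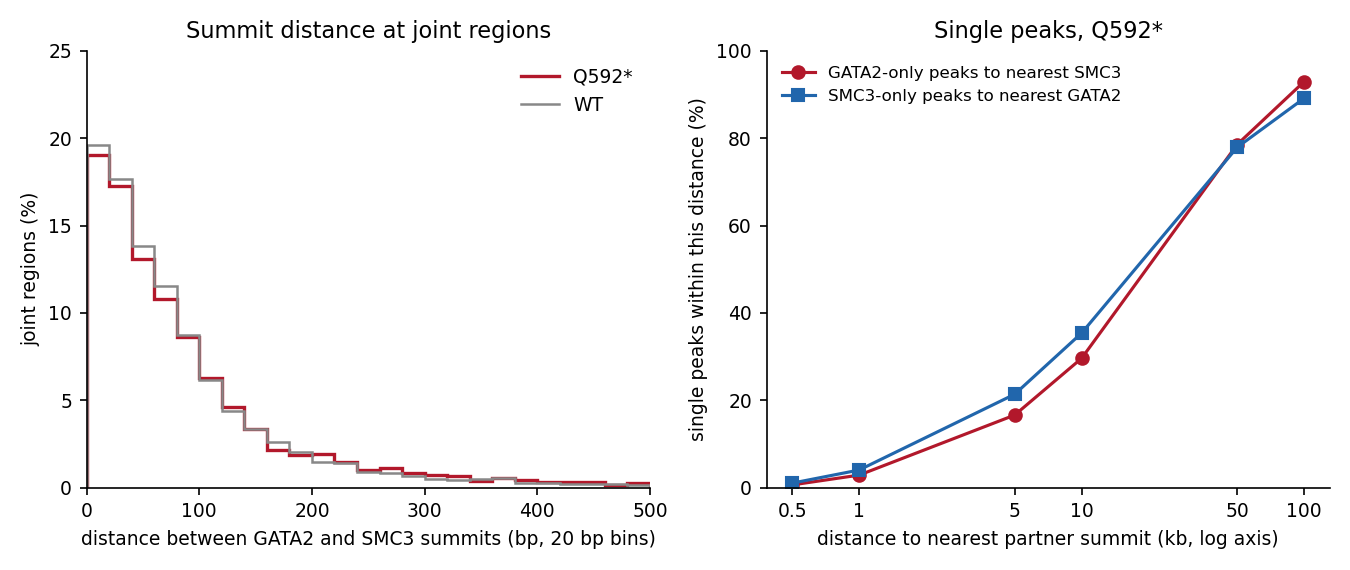
Left, share of joint regions (y axis, %) by distance between the GATA2 and SMC3 summits (x axis, 20 bp bins to 500 bp) in Q592* and in WT. Right, share of single peaks of Q592* (y axis, %) with a partner summit within a given distance (x axis, kb, log axis), for GATA2-only peaks (circles) and SMC3-only peaks (squares). The median summit distance was 61 bp in Q592* and 58 bp in WT, and 29.6% of the GATA2-only and 35.4% of the SMC3-only peaks had a partner within 10 kb.

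Strong GATA2 binding did not go with strong SMC3 binding at joint regions. The Spearman rho of the GATA2 and SMC3 fold enrichment across the 6702 joint regions was -0.24, and -0.30 for the −log10 q. It was below 0 on 22 of 22 autosomes, ranging from -0.40 on chromosome 20 to -0.07 on chromosome 16. These values are descriptions over regions that share the line, the pooled libraries and possibly the inputs, and they moved with the rules. With a local background of at most 2 times in both lists rho was -0.32 (2846 regions), and with a −log10 q of at least 10 it was -0.24. With the GATA2 list trimmed to the length of the SMC3 list rho was -0.0611, and with an overlap of at least 50% of both peaks -0.0421. In WT, over its own 9992 joint regions, rho was 0.13. Over the 4447 matched regions it was -0.09 with the Q592* values and -0.06 with the WT values, so the lines lay close together once the same regions were used.

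The weak overall rho covers an uneven spread over the rank grid. Joint regions were placed by whether the GATA2 and the SMC3 peak lay above percentile 50 of fold enrichment in its full list. High GATA2 with low SMC3 was the most common, with 3905 of 6702 regions (58.3%, 57.1 to 59.4%). In the full lists the joint peaks had median percentiles of 79.8 for GATA2 and 25.2 for SMC3. This class thus partly restates that joint sites were strong for GATA2 and weak for SMC3. The others held 929 regions with both high, 928 with low GATA2 and high SMC3, and 940 with both low, between 13.8% and 14.03% each. Median folds were 13.1 for GATA2 and 3.52 for SMC3 in the most common class, 7.95 and 9.50 where both were high, 3.66 and 10.2 with low GATA2 and high SMC3, and 3.61 and 3.53 where both were low. The summit distance hardly differed between these classes, with medians of 59, 59, 62.5 and 66.5 bp in the same order. Peak widths followed strength: GATA2 peaks were 548 bp wide at the median and SMC3 peaks 261 bp in the most common class, and 227 bp and 537 bp with low GATA2 and high SMC3.

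**Figure D3:**
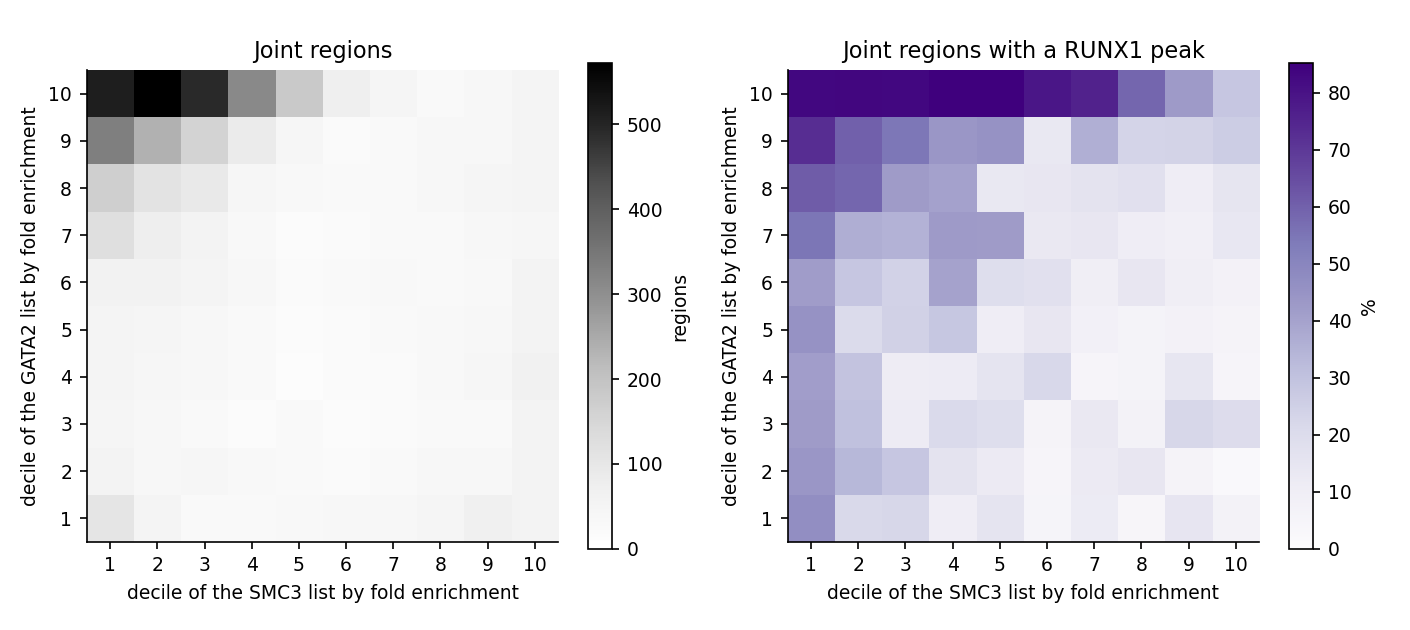
The 6702 joint regions of Q592* by decile of fold enrichment in the SMC3 list (x axis) and in the GATA2 list (y axis), as the number of regions (left, grey scale) and as the percentage with a RUNX1 peak of Q592* (right, purple scale). Regions gather in GATA2 decile 10 with SMC3 deciles 1 to 3 (512, 572 and 492 regions), where 82.9% to 83.2% had RUNX1; many other squares hold few regions, such as 29 at GATA2 decile 10 with SMC3 decile 8.

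RUNX1, which had no part in the choice of the sites, was most frequent at the joint regions with high GATA2 and low SMC3. A RUNX1 peak of Q592* overlapped 3295 of 6702 joint regions (49.2%, 48.0 to 50.4%), 7952 of 50727 GATA2-only regions (15.7%, 15.4 to 16.0%) and 536 of 25049 SMC3-only regions (2.14%, 1.97 to 2.33%). Over all 82478 regions the share was 14.3%. The labels give 1 library for the RUNX1 list of Q592*, on which these shares rest. The joint GATA2 peaks were wider, as given above, and their local background was 2.07 times the genome-wide value, beside 1.71 at GATA2-only regions; its part in the RUNX1 shares was not tested. Counted from the GATA2 summit, with a RUNX1 summit within 200 bp, the shares were 46.7% at joint and 15.1% at GATA2-only regions. By class, RUNX1 was found at 69.0% (67.5 to 70.4%) of the joint regions with high GATA2 and low SMC3, at 26.6% (23.8 to 29.5%) where both were high, at 9.38% (7.66 to 11.4%) with low GATA2 and high SMC3, and at 28.5% (25.7 to 31.5%) where both were low. Within GATA2 decile 10 the RUNX1 share stayed between 82.9% and 85.2% in SMC3 deciles 1 to 5, and was 28.3% (15 of 53 regions) in SMC3 decile 10. Among regions with a local background of at most 2 times in both lists, the class shares were 63.02%, 24.1%, 6.31% and 15.98%.

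RUNX1 was more frequent at joint than at GATA2-only regions in every GATA2 decile. In the lowest GATA2 decile RUNX1 was at 19.6% (16.3 to 23.3%) of the joint and at 6.91% (6.26 to 7.63%) of the GATA2-only regions. In the highest GATA2 decile the shares were 80.9% (79.3 to 82.5%) and 56.4% (54.7 to 58.04%). The joint share was the higher one in each of the 10 deciles. These shares count overlap with the whole region, which at joint regions includes the SMC3 peak. GATA2 strength was not matched within a decile, and the highest decile spans folds of 12.6 to 73.3. Against SMC3 strength the joint share fell, with 66.3% (63.9 to 68.7%) in the lowest and 12.5% (9.98 to 15.5%) in the highest SMC3 decile, while SMC3-only regions stayed between 1.34% and 6.84%. Joint regions with RUNX1 had a median GATA2 fold of 14.3 and SMC3 fold of 3.60, and those without had 5.31 and 5.11. Within the joint regions with RUNX1 the rank correlation of GATA2 and SMC3 fold was 0.18 (3295 regions), and within those without it was -0.22 (3407 regions).

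**Figure D4:**
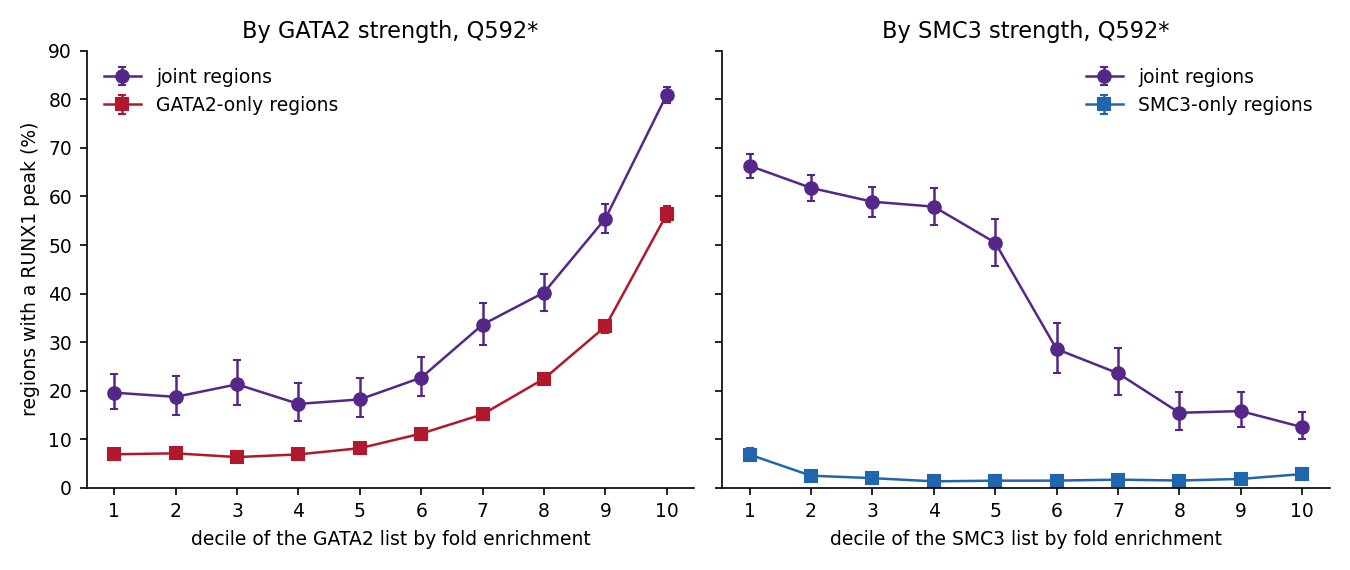
Share of regions with a RUNX1 peak of Q592* (y axis, %) by decile of GATA2 fold enrichment (left) and of SMC3 fold enrichment (right), for joint regions (circles) and for regions of that protein alone (squares), with 95% Wilson intervals as bars. Joint regions lie above single regions in every decile of both panels.

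The joint regions strongest for both proteins were ranked by the worse of their 2 ranks. The leader was on chromosome 12 (104502793 to 104503574), with a GATA2 fold of 51.8 and an SMC3 fold of 22.8, ranks 27 and 137, and summits 28 bp apart. The next, on chromosome 1 from 91186967 to 91187483, had folds of 31.9 for GATA2 and 27.8 for SMC3 and summits 31 bp apart. The third was on chromosome 2 from 134875750 to 134876439, with folds of 42.6 and 19.4, summits 167 bp apart and a RUNX1 peak. Of the 10 leading regions 4 carried RUNX1 in Q592* and 10 were also called for GATA2 and for SMC3 in WT. Of all 929 regions with both proteins above percentile 50, 26.6% carried RUNX1 and 80.1% were joint in WT, so the leaders' counts do not set them apart. The widest summit distance among them was 588 bp, on chromosome 12 from 56519865 to 56521023, and the shortest 5 bp, on chromosome 2 from 151908052 to 151908562.

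The most unequal regions were picked by the difference between their percentile ranks in the lists. The 3 joint regions with GATA2 ranked farthest above SMC3 lay on chromosome 21 (25644572 to 25645409), chromosome 12 (52366254 to 52367048) and chromosome 6 (37269760 to 37270576). Their GATA2 folds were 31.8, 26.7 and 26.9 and their SMC3 folds 1.97, 2.04 and 2.06, with summits 120, 38 and 33 bp apart, and RUNX1 was called at all 3. Their local background was 3.33 to 4.44 times the genome-wide value for GATA2 and 3.92 to 5.36 times for SMC3; its part in the low SMC3 folds was not tested. The 3 with SMC3 ranked farthest above GATA2 lay on chromosome 6 (32381097 to 32381943), chromosome 7 (142937505 to 142938252) and chromosome 12 (1899671 to 1900736). Their GATA2 folds were 2.43, 2.53 and 2.34 and their SMC3 folds 16.7, 17.6 and 15.6, and RUNX1 was called at none. Their summits were 365, 148 and 706 bp apart. RUNX1 was at 83.0% of all joint regions in GATA2 decile 10 with SMC3 decile 1. In GATA2 decile 1 with SMC3 decile 10 it was at 6.90%, so the RUNX1 calls do not set the named regions apart.

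Single sites lay far from the other protein compared with a peak's width. From a GATA2-only summit the nearest SMC3 summit was at a median of 20632 bp (20353 to 20927), and from an SMC3-only summit the nearest GATA2 summit at 17141 bp (16841 to 17551). Peaks that overlap a partner are not single, and with these widths that removes nearly all close summits beforehand. A partner summit within 500 bp was found for 339 of 50727 GATA2-only peaks (0.668%) and 269 of 25049 SMC3-only peaks (1.07%). A partner within 10 kb was found for 29.6% and 35.4%, and within 100 kb for 92.9% and 89.1%. The GATA2 list is the longer one, so a nearest GATA2 site has more peaks to come from and these medians are not a contrast of the proteins.

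Weak SMC3-only peaks lay closer to GATA2 than stronger ones. The median distance to GATA2 was 9866 bp in the lowest SMC3 decile, 20202 bp in decile 6 and 17022 bp in the highest. GATA2-only peaks varied less, with medians of 17344 bp in the lowest and 22912 bp in the highest GATA2 decile. For 32.9% (32.5 to 33.3%) of the GATA2-only peaks the nearest SMC3 peak was itself joint, beside 21.4% of the SMC3 list. For SMC3-only peaks the nearest GATA2 peak was joint in 11.2% (10.9 to 11.6%), beside 11.8% of the GATA2 list. The list shares are not expected values. A joint SMC3 peak lies on a GATA2 peak by the rule, and 61.4% of the GATA2-only peaks had another GATA2 summit within 10 kb. Joint peaks had other peaks of the same protein somewhat nearer than single ones did. The median distance to the next GATA2 summit was 5056 bp (4832 to 5273) from joint and 6359 bp (6256 to 6494) from GATA2-only peaks, and to the next SMC3 summit 13934 bp from joint and 17674 bp from SMC3-only peaks.

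The highest fold of the SMC3 list belonged to a single site, whereas the highest of the GATA2 list, 73.3, belonged to a joint one. The 5 strongest GATA2-only regions had folds of 50.2 to 57.6, and 4 of them carried RUNX1, which was at 56.4% of the GATA2-only regions of the highest GATA2 decile. Among them were regions on chromosome 10 (110784793 to 110785513, fold 54.1), chromosome 2 (114367383 to 114367777, fold 52.04) and chromosome 13 (38533340 to 38534105, fold 51.1), whose nearest SMC3 summits were 6207, 5790 and 86374 bp away. The one on chromosome 13 had an SMC3 peak in WT. The strongest SMC3-only region, on chromosome 17 from 32526857 to 32527553, had a fold of 40.6, with the nearest GATA2 summit 2466 bp away. The next were on chromosome 5 (129103493 to 129104043, fold 39.8) and chromosome 1 (159861115 to 159861788, fold 37.5), at 144678 and 1124 bp from GATA2. None of the 5 strongest SMC3-only regions carried RUNX1 in Q592* or GATA2 in WT, and all 5 were SMC3 peaks in WT. These counts are near the shares over all SMC3-only regions, of which 2.14% carried RUNX1 and 91.3% overlapped SMC3 alone in WT.

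Most joint regions of Q592* were also joint in WT, and the rest had mainly lacked a GATA2 call there. Of the 6702 joint regions 4510 overlapped both a GATA2 and an SMC3 peak of WT (67.3%, 66.2 to 68.4%), against 11.7% of all regions of the Q592* lists. A further 1332 overlapped SMC3 alone in WT (19.9%), 646 GATA2 alone (9.64%) and 214 neither (3.19%). Of the GATA2-only regions 44.8% overlapped neither in WT and 1.23% SMC3 alone, so joint regions lacked a WT GATA2 call less often than these. The WT GATA2 list is also shorter, with 38063 autosomal peaks against 57483 in Q592*, and its part in these shares was not tested. The 1332 regions with SMC3 alone in WT had a median GATA2 fold of 3.77 and SMC3 fold of 7.57 in Q592* and carried RUNX1 at 13.5% (11.8 to 15.4%). The 4510 regions joint in both lines had 11.5 and 3.88 and carried RUNX1 at 59.7% (58.2 to 61.1%). Regions with GATA2 alone in WT resembled these, with 10.8 and 3.38 and RUNX1 at 54.95%. Counted the other way, 4956 of the 50727 GATA2-only regions of Q592* were joint in WT (9.77%), and 159 of the 25049 SMC3-only regions (0.635%).

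The classes of joint regions differed in what WT held. With high GATA2, 80.8% (79.6 to 82.02%) of the regions were joint in WT where SMC3 was low and 80.1% (77.4 to 82.5%) where SMC3 was high. With low GATA2 and high SMC3, 29.4% (26.6 to 32.4%) were joint in WT and 70.3% (67.2 to 73.1%) held SMC3 alone. Where both were low, 35.9% were joint, 44.4% held SMC3 alone and 13.9% held neither. None of the 929 regions with both high lacked SMC3 in WT, and the Wilson interval allows a share of up to 0.412%. The part of peak strength in these shares was not tested. At the 4447 matched regions the fold ranks of the lines followed each other, with a Spearman rho between Q592* and WT of 0.86 for GATA2 and 0.66 for SMC3.

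**Figure D5:**
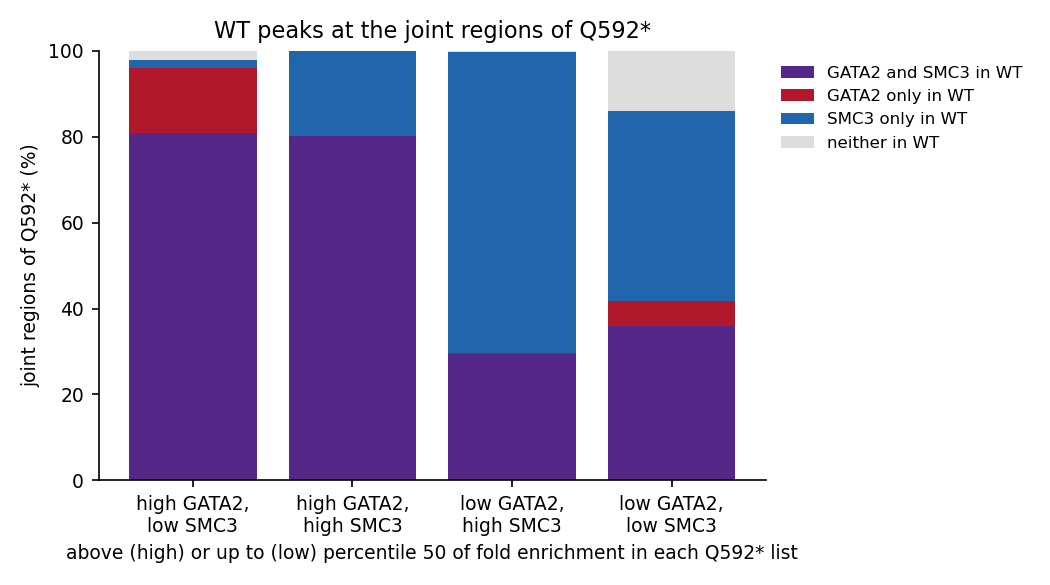
Joint regions of Q592* (y axis, % of each class) by the WT peaks they overlap, in 4 classes set by whether the GATA2 and SMC3 peak lies above or up to percentile 50 of fold enrichment in its Q592* list (x axis). Regions with high GATA2 were joint in WT in 80.8% (low SMC3) and 80.1% (high SMC3), and those with low GATA2 and high SMC3 held SMC3 alone in WT in 70.3%.

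Chromosomes differed more in the share of SMC3 sites that were joint than in that of GATA2 sites. The share of SMC3 peaks with GATA2 was lowest on chromosome 19, at 9.07% (7.55 to 10.9%), followed by 17 (12.3%), 16 (12.6%) and 22 (12.7%). It was highest on chromosome 6, at 29.0% (27.1 to 30.9%), and 13, at 27.6% (24.8 to 30.5%). The share of GATA2 peaks with SMC3 kept between 8.48% (7.07 to 10.1%) on chromosome 18 and 13.6% (12.4 to 14.9%) on chromosome 10. The shares are tied to each other, since 97.4% of the joint regions held 1 peak of each protein. At a given GATA2 share, the SMC3 share therefore follows the number of GATA2 peaks for each SMC3 peak. That number was 0.78 on chromosome 19, which is dense in genes, 2.23 on chromosome 6 and 2.54 on chromosome 13. The wide range of SMC3 shares is thus not separate from the balance of the lists. RUNX1 was at 38.9% of the 157 joint regions on chromosome 17 and at 56.7% of the 104 on chromosome 19. These are the extremes of the 22 autosomes and rest on few regions.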

How the data were processed

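The deposited peak lists were used as they stand. Bowtie2, Picard and MACS2 are named in the submitters' processing notes, along with build hg19, and their versions and parameters count as not given in the sources used here. Lists were taken as pooled over their libraries because the word merge stands in every peak name. It also stands in those of the Q592* RUNX1 list, for which the labels give 1 library, so the word alone does not show pooling. The deposited fold enrichment (a ratio), −log10 p and −log10 q of a peak are those of its summit, while the score the authors deposited repeats the −log10 q at 10 times its size and was not used. No list gives a read total. The weakest −log10 q was 2.00 in both Q592* lists, so weaker sites cannot be seen.

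Regions are sets of overlapping GATA2 and SMC3 peaks on autosomes, each described by its strongest peak per list. Positions are counted from 1. The local background was estimated from the fold and p with the pseudocount of 1 that MACS2 adds, and divided by the most frequent value of the list, 4.5 reads for GATA2 and 4.0 for SMC3. Overlap, distance and background functions were tested on simulated data. Named sites follow a rule: the 10 joint regions with the best worse rank, the 3 most unequal in each direction, and the 5 strongest single regions of each protein, of which part is printed. The plan also held gene lists, which need an hg19 annotation and were not used. Sites and settings were chosen with earlier results of these data known. Computation ran in Python 3.11.15 (scipy 1.17.1, numpy 2.4.6, pandas 2.3.3), and plots were drawn with matplotlib 3.10.9.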

Additional observations from a re-analysis of the deposited data

How the results depend on the processing

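No paired analysis was possible because each target and line has 1 merged list without replicate numbers, which also meant that no library could be left out. Of 40 alternative values 17 stayed within the interval of the reported value, among them all 8 with chromosomes X and Y included. Shares and distances cannot change sign. The rho could, and stayed below 0 in each setting that gave one, though close to 0 in some. The cause of the changes was not tested. A −log10 q of at least 10 in every list gave joint shares of 6.44% (GATA2) and 10.1% (SMC3), distances to the nearest partner of 28871 bp (GATA2-only) and 24011 bp (SMC3-only), RUNX1 at 36.3% of the joint regions and 56.9% joint in WT. A GATA2 list trimmed to the length of the SMC3 list gave shares of 16.5% and 16.8% and a rho of -0.0611. An overlap of at least 50% of both peaks gave 5.95% and 10.7%, a summit distance of 50 bp, a rho of -0.0421, RUNX1 at 42.01% and 58.98% joint in WT. Summits within 200 bp gave 10.3%, 18.7% and 63.4% joint in WT. The −log10 q in place of the fold gave a rho of -0.30. Leaving out peaks with a local background over 5 times the genome-wide value, chosen after the data were seen, gave a GATA2 share of 11.1%, a rho of -0.26 and distances of 22781 and 18075 bp. Sites below the lists' thresholds cannot be seen, which limits every share, and the read totals of the lists are unknown here.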
